A study of Homo sapiens with 6 samples.

Results

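The 35 genes described here encode the machinery that copies DNA in S phase, and they are followed in HT-29 cells treated with 5-Aza and in control cells. They were chosen by symbol, as core replication factors and G1/S regulators. The rule uses no measured value, but earlier results of these data were known when it was written. Each gene was represented by 1 probe set, the one with the highest mean signal, and the 35 genes are part of 19775 genes measured in this way. HT-29 is an established line of human colorectal adenocarcinoma. The treated cells were given 10 µM 5-Aza (5-aza-2′-deoxycytidine) for 72 hours in medium without serum, and the control cells received only the solvent of the drug, water and acetate. RNA of each condition was hybridized to 3 HGU133 Plus 2.0 microarrays. A single cell line was used. Whether each array stands for a culture of its own is not stated, and the p-values therefore measure the spread between these 6 arrays only.

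Replication starts when the origin recognition complex, CDC6 and CDT1 load the MCM helicase onto origins in G1. Kinases then recruit CDC45 and the GINS complex, primase and the polymerases start the new strands, and the sliding clamp PCNA, loaded by replication factor C, holds the polymerases on the template. Many of these genes are transcribed at the G1/S transition by E2F factors, which the retinoblastoma family holds back in resting cells. 5-Aza is a cytidine analog that is itself built into DNA during replication, where it traps DNA methyltransferases, so it acts on cells that pass through S phase. In RNA from whole cultures, a smaller share of cells in S phase and less of a transcript in each cell cannot be told apart.

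Promoter sequence is a property that was not used to choose these genes. Many replication genes are E2F targets, as stated above, so a high share of E2F words could be anticipated. RefSeq promoter windows of GRCh38.p14, from 250 bases before to 50 bases after the start of a gene, were found for 31 of the 35 genes, and MCM4, MCM5, GINS4 and CCNE2 had no entry. The words TTTCCCGC, TTTCGCGC, TTTGCCGC and TTTGGCGC, which are forms of the E2F motif, were searched on both strands. At least 1 of them was present in 18 of 31 genes (58.1%), in 15 of 46 other replication genes described at the end (32.6%), and in 3.99% of all 27305 genes with a window. Counted by window, the share was 47.4% for the replication genes and 3.31% for all 35116 windows. The CCAAT word was more evenly spread, with 54.8% of the replication genes and 39.7% of all genes. The windows of all genes were not matched to those of the replication genes for base composition. A match describes the letters only and does not show that a factor binds there. The stretches around the matches of 7 genes are printed as examples (1 of 2 matches for CDC7). Each is read 5′ to 3′ on the strand of the gene with the E2F word in capitals. In MCM6 and in no other of these stretches, the words of both strands overlap, in TTTGGCGCGAAA, which occurs at 2 places in that promoter. The E2F1 stretch carries 2 separate words.
TYMS (chr18:657600-657635, plus strand): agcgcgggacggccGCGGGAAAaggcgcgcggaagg
PCNA (chr20:5126660-5126695, minus strand): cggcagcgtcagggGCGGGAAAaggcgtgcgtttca
MCM6 (chr2:135876508-135876547, minus strand): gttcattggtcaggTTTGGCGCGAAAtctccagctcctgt
MCM6 (chr2:135876570-135876609, minus strand): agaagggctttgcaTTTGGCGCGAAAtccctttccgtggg
RFC3 (chr13:33818080-33818115, plus strand): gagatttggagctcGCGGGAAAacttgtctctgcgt
CDT1 (chr16:88803740-88803775, plus strand): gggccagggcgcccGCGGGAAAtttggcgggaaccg
CDC7 (chr1:91501064-91501099, plus strand): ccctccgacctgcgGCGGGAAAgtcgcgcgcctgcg
E2F1 (chr20:33686386-33686432, minus strand): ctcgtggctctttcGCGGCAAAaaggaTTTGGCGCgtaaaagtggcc

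The deposited values are linear array signals, scaled so that each array has the same trimmed mean of 500. All 35 genes lay above 42, the highest signal of a bacterial control probe set, on all 6 arrays. Epithelial markers were strong (EPCAM from 19976 to 27198), and 7 of 9 lay above that level on every array, the exceptions being CDX1 and CDX2, while 2 of 6 markers of other cell types did (VIM and PECAM1). Correlations between arrays ran from 0.926 to 0.934. Control array 2 stood apart from control arrays 1 and 3 for the replication genes. It gave the highest of the 3 control signals for 35 of 35 genes, against 34.6% of all genes, and values without this array are therefore given beside those with it where the sign or the size turns on it. On the first principal component (23.0% of the variance) it lay at 149.9, against 56.5 and 3.23 for the other controls, and the 5-Aza arrays lay from -79.0 to -62.3. On the second component, which held nearly as much of the variance, control array 1 was the most distant, at 144.6, with -100.8 for control array 2 and 52.0 for control array 3, so over all probe sets each control lay apart from the others. What set this array apart was not tested.

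The median log2 difference of the replication genes, 5-Aza minus control, was 0.08, with quartiles of -0.01 and 0.20, and that of all genes was 0.04. After centring each array on its median these values were -0.10 and -0.15, since centring lowers the difference of all probe sets by 0.19. The difference was positive for 24 of the 35 genes (68.6%; 10 genes after centring) and for 54.9% of all genes. With limma and Benjamini-Hochberg adjustment over all probe sets, 0 genes were higher and 0 were lower at an adjusted p under 0.05 (0% of all genes in either direction), and the smallest adjusted p among the 35 was 0.573. This threshold had little power in simulated data, where it was reached by 0% of the probe sets changed by 1 on the log2 scale. In the same data limma reached an unadjusted p under 0.025 for 96.4% of these probe sets, and for 64.2% of those changed by 0.5. The noise was drawn independently for each probe set, with 200 strong probe sets of 54613 changed. No shift shared by many genes, like that of control array 2, was included, so these shares need not hold for the arrays. At the threshold of the study, an unadjusted p under 0.025, 1 gene was higher (ORC6), where 3.01% of all genes were called higher, and 0 were lower, where 0.915% of all genes were. The counts were also 1 and 0 at an unadjusted p under 0.05 (5.33% and 1.89% of all genes), and a SAM-type statistic called 0 at p under 0.025. The 3 treated signals lay above all 3 control signals for 1 gene, again ORC6, and below all of them for 0 genes, where 9.92% and 6.94% of all genes did so. Each of the 35 genes except GINS4 belongs to the 9887 genes with a mean signal above the median of all genes. In that class the median log2 difference was -0.01 and 47.4% were positive. At an unadjusted p under 0.025 by limma, 128 of the 9887 were higher and 41 lower. The groups did not overlap for 971 with higher and 1067 with lower signals.

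The intervals that follow hold for the deposited scaling and describe the spread between these arrays. The control arrays differed among themselves for these genes, and separate cultures are not stated. The intervals therefore do not bound the effect of the treatment. The 95% interval of the log2 difference included 0 for 34 of 35 genes and lay within 1 of 0, less than a doubling or a halving, for 33 of them. The exceptions were ORC6, with an upper bound of 1.28, and CDT1, with a lower bound of -1.14. This count depends on the scaling, since median centring lowers all differences by 0.19. With unchanged widths, that shift would take more lower bounds out of the range. These are ORC1 (-0.95 before centring), GINS4 (-0.96), CHAF1B (-0.93) and MCM5 (-0.85). A narrower range of 0.75 on either side held the intervals of 20 genes. Halfwidths of the intervals ran from 0.39 to 0.94, with a median of 0.54.

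**Figure D1:**
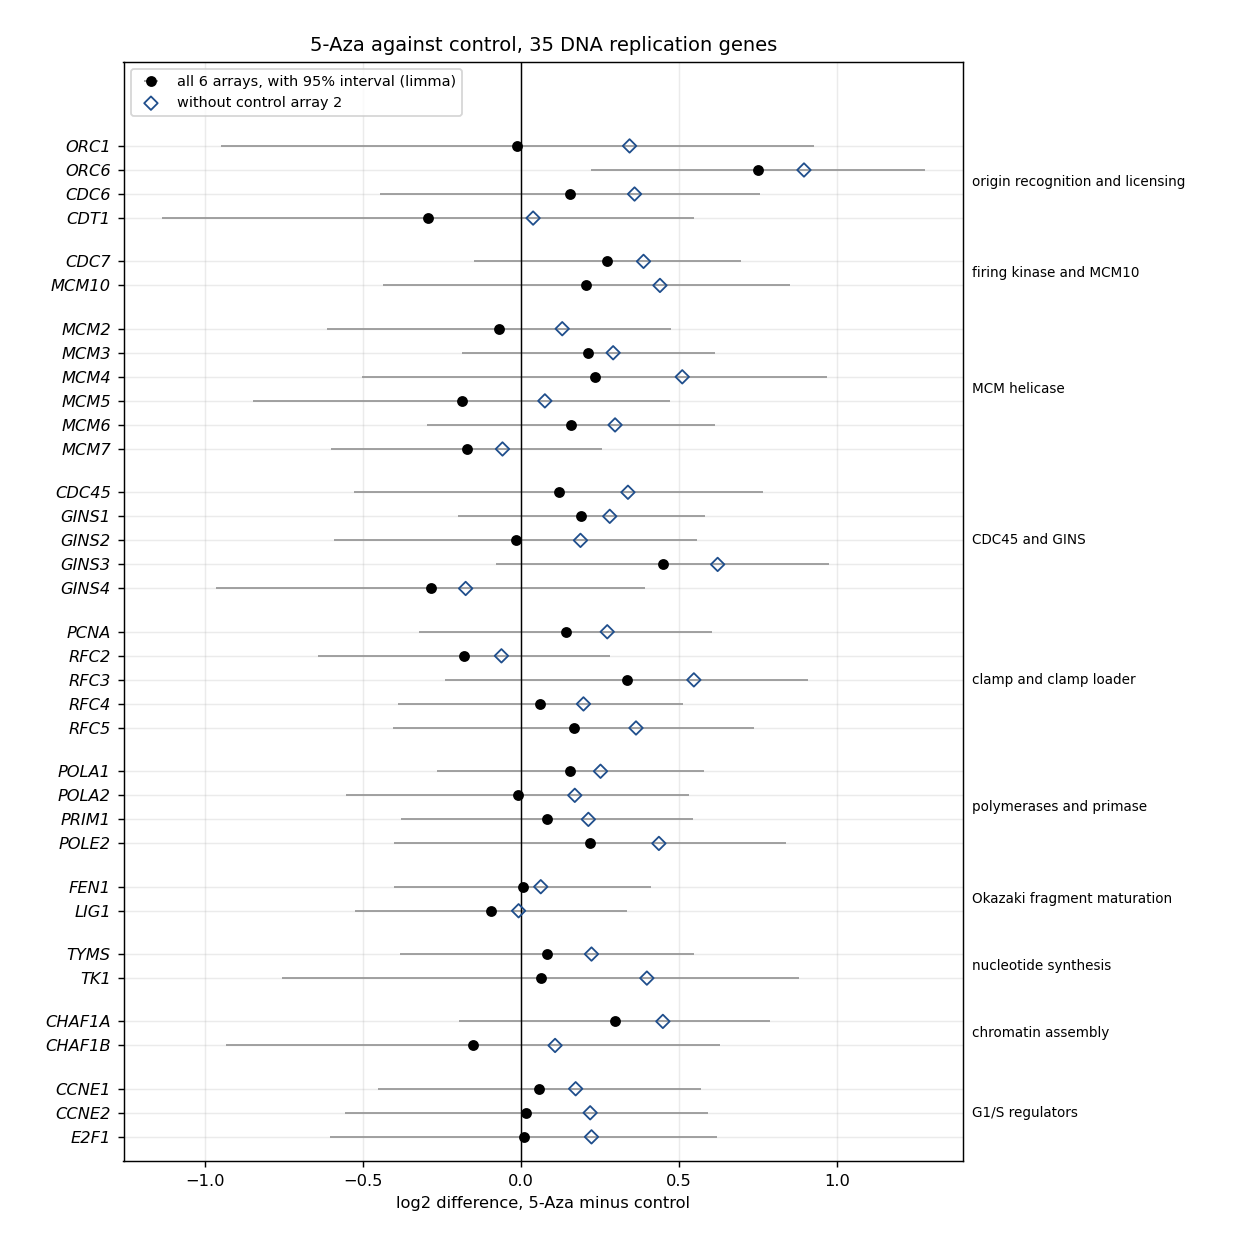
Log2 difference, 5-Aza minus control, of the 35 replication genes by role, with filled points and 95% intervals from limma over all 6 arrays and open diamonds for the value without control array 2. The interval of ORC6 alone excludes 0, and without control array 2 the value is positive for 31 of 35 genes. Array 2 was the highest control for each gene, so leaving it out raises every value.

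Among the genes of origin recognition and licensing, ORC6, a subunit of the origin recognition complex, was higher in treated cells. Its signals were 2416, 1910 and 2405 on the 5-Aza arrays and 1287, 1624 and 1118 on the control arrays, so that the lowest treated array lay above the highest control. The fold was 1.68 (95% interval 1.16 to 2.42) and the log2 difference 0.75 ± 0.21 (SE, as for every log2 difference that follows), with an unadjusted p of 0.0142 and an adjusted p of 0.573 by limma. An exact two-sided permutation test gave p = 0.1, the smallest that 3 against 3 arrays allow. The only ORC6 probe set ends in _x_at, a class whose probes can match other transcripts. Its call was lost on leaving out 5-Aza array 1 or 3 or control array 1 or 3, with a log2 difference from 0.63 to 0.73 in those 4 cases, and it was lost too after median centring, under a SAM-type statistic and with the replicate number as a block. ORC1, the ATPase subunit of the same complex, differed by -0.01 ± 0.37 on the log2 scale. Its 5-Aza signals were 326, 329 and 265, and its control signals 294, 504 and 197, so the treated arrays all fell inside the control range, and without control array 2 the difference was 0.34. CDC6, the loader of the helicase, differed by 0.15 ± 0.24, and its partner CDT1 had the most negative value of all 35 genes, -0.30 ± 0.33. CDT1 read 1021, 892 and 1179 in treated cells and 933, 1997 and 1067 in control cells, where the high value was control array 2. Without that array its log2 difference was 0.04.

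CDC7, the kinase that phosphorylates the MCM helicase to fire an origin, had signals of 951, 1029 and 968 in 5-Aza-treated cells and 783, 952 and 720 in control cells. The treated arrays exceeded control arrays 1 and 3, and 1 of them lay just under control array 2. The log2 difference was 0.27 ± 0.17 (adjusted p = 0.793, limma). MCM10, which joins the helicase as it is activated, differed by 0.21 ± 0.26.

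Of the 6 subunits of the MCM helicase, which unwinds the parental strands, 0 passed an unadjusted p under 0.025 in either direction. Over all 6 arrays MCM3, MCM4 and MCM6 had positive values from 0.16 to 0.23, and MCM2, MCM5 and MCM7 negative values from -0.19 to -0.07. This division rested on control array 2, since 5 of the 6 were positive without it, with MCM2 at 0.13, MCM5 at 0.08 and MCM7 at -0.06. MCM2 signals were 4534, 4565 and 4581 in treated cells and 4126, 6334 and 4209 in control cells. The treated arrays lay between the 2 low controls and the high one. For MCM5 the signals were 1264, 1165 and 1232 with 5-Aza and 1150, 2000 and 1166 in control cells, so the treated arrays again lay inside the control range and far under control array 2.

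Of the partners that complete the helicase, CDC45 differed by 0.12 ± 0.26 and the 4 GINS subunits by values from -0.29 (GINS4) to 0.45 (GINS3). GINS1 had signals of 1680, 1749 and 1736 in treated cells and 1488, 1711 and 1349 in control cells. As for CDC7, only control array 2 reached the treated level. GINS3 had signals of 441, 454 and 384 in treated cells and 287, 397 and 265 in control cells, and its difference of 0.45 ± 0.21 had an adjusted p of 0.735 by limma. GINS4 had signals of 90, 132 and 160 in treated cells and 130, 177 and 152 in control cells, with overlapping groups.

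**Figure D2:**
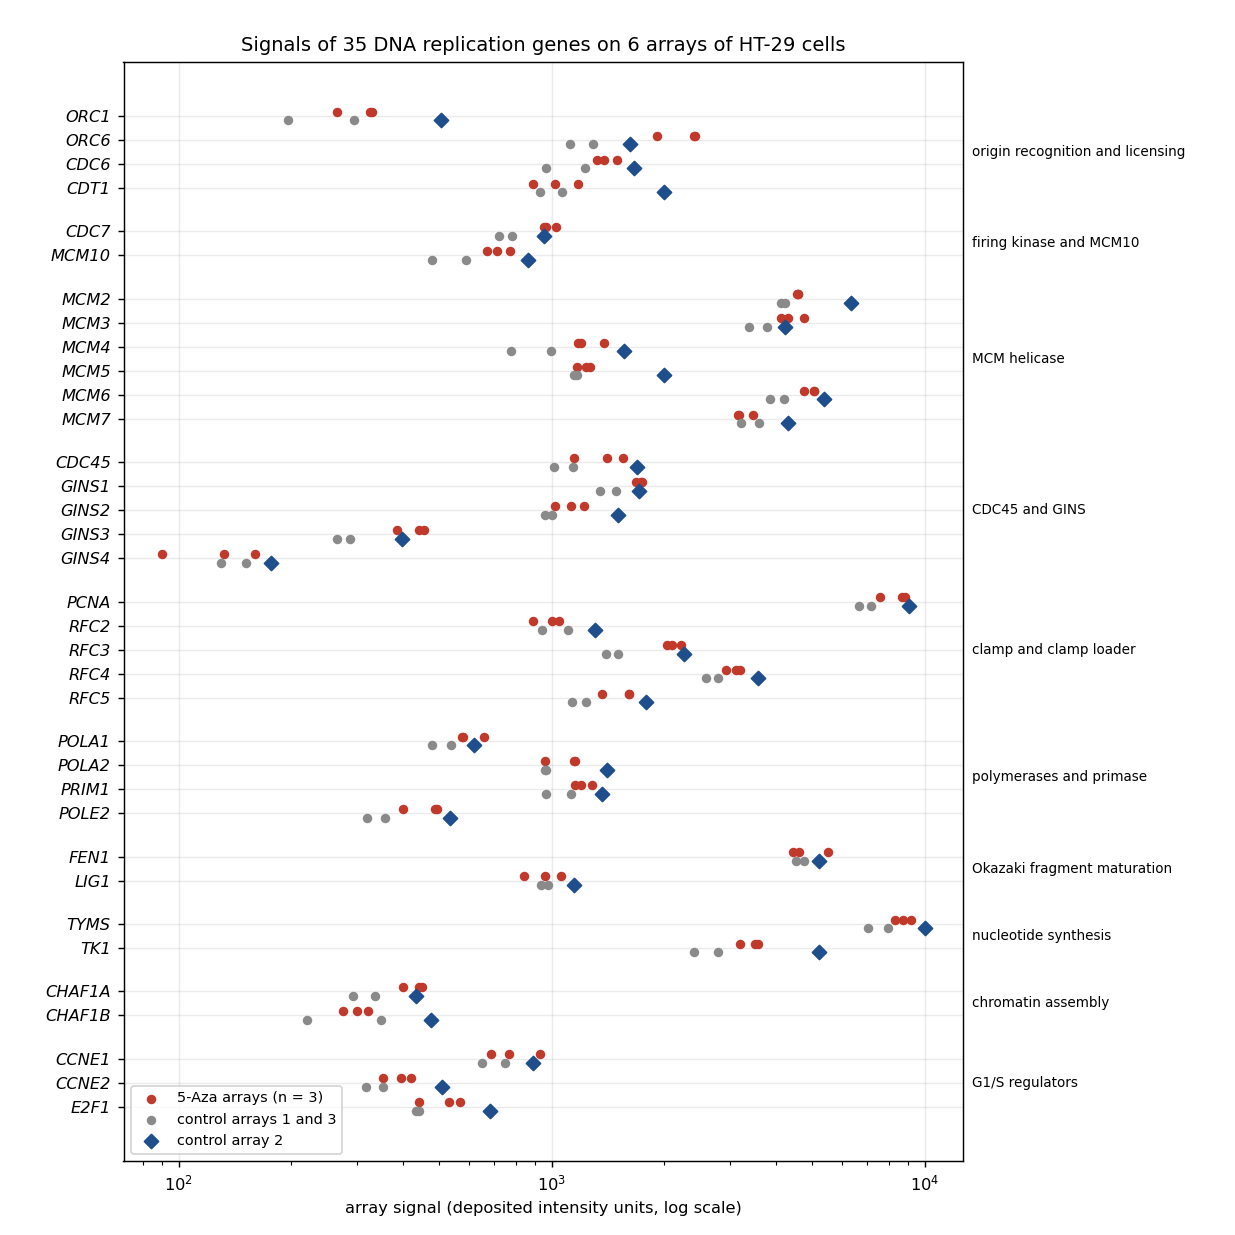
Array signal (log scale) of the 35 replication genes on the 3 5-Aza arrays (red), on control arrays 1 and 3 (grey) and on control array 2 (blue diamonds), by role. Levels are not comparable between genes, since each has its own probes. Control array 2 is the highest control in every row, and ORC6 alone has all 5-Aza arrays above all controls.

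PCNA, the sliding clamp, gave signals of 7581, 8665 and 8870 in treated cells and 7167, 9095 and 6672 in control cells, a log2 difference of 0.14 ± 0.18 (adjusted p = 0.893, limma). Control array 2 was the highest of the 6. The clamp loader subunits differed by -0.18 (RFC2), 0.06 (RFC4), 0.17 (RFC5) and 0.33 (RFC3). RFC3 had signals of 2039, 2227 and 2099 in treated cells, and 1507, 2260 and 1398 in control cells. Its treated arrays were closely grouped near the level of control array 2 and well above the other controls.

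Primase and the polymerases had values from -0.01 to 0.22. PRIM1, the catalytic subunit of primase, read 1280, 1197 and 1151 with 5-Aza and 1126, 1367 and 965 in control cells, a log2 difference of 0.08 ± 0.18. POLA1 and POLA2, subunits of DNA polymerase alpha, differed by 0.16 and -0.01, and POLE2, a subunit of DNA polymerase epsilon, by 0.22. FEN1, the flap endonuclease that trims Okazaki fragments, had signals of 4438, 5499 and 4599 in treated cells and 4505, 5204 and 4739 in control cells. These overlap fully, and its log2 difference of 0.00 ± 0.16 is among the closest to 0. LIG1, the ligase that seals the fragments, differed by -0.10 ± 0.17.

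TYMS, which makes thymidylate, had signals of 8331, 8738 and 9169 in treated cells and 7951, 10022 and 7055 in control cells (log2 difference 0.08 ± 0.18, adjusted p = 0.942, limma). TK1, the salvage enzyme for thymidine, read 3497, 3577 and 3190 with 5-Aza and 2789, 5221 and 2412 in control cells. For both, the treated arrays fell between the low controls and control array 2. The TK1 difference was 0.06 ± 0.32 with that array and 0.40 without it. CHAF1A, the large subunit of the chromatin assembly factor that places histones behind the fork, had signals of 400, 448 and 440 in treated cells and 336, 432 and 294 in control cells, a difference of 0.30 ± 0.19. Its partner CHAF1B differed by -0.15 ± 0.31, and by 0.11 without control array 2.

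The 3 G1/S regulators had a median log2 difference of 0.02. CCNE1, a cyclin that activates CDK2, had signals of 928, 767 and 686 in treated cells and 650, 888 and 751 in control cells, with a log2 difference of 0.06 ± 0.20. CCNE2 differed by 0.02 ± 0.23. E2F1, the transcription factor whose motif was searched in the promoters, had signals of 566, 532 and 442 with 5-Aza and 434, 683 and 441 in control cells, and it differed by 0.01 ± 0.24.

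The control arrays spread more than the 5-Aza arrays for most of these genes. The median SD of the log2 signal was 0.12 over the 5-Aza arrays and 0.31 over the control arrays, where all genes had medians of 0.23 and 0.30, and the genes with a mean signal above the median had 0.10 and 0.16. The control SD was the larger for 32 of 35 genes, and for 61.0% of all genes. Control array 2 exceeded the mean of control arrays 1 and 3 by a median of 0.52 on the log2 scale, and by 0.17 (FEN1) to 1.06 (ORC1) for single genes. The median excess over all genes was 0.00. An excess of this size or more was seen in 17.8% of all genes and in 4.50% of the genes with a mean signal above the median of all genes, a class that holds each of the 35 genes except GINS4. Array 2 was the highest of all 6 arrays for 26 of 35 genes and for 18.6% of all genes. Control array 3 was the lowest control for 18 genes and control array 1 for 17, so neither of those stood apart from the other.

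The excess was also seen under the 2 other scalings that were run. After quantile normalization control array 2 was the highest control for 35 of 35 genes, with a median excess of 0.56, and after centring each array on its median the count was again 35, with 0.59. It was similar for genes with and without an E2F word in the promoter, with medians of 0.47 (18 genes) and 0.46 (13 genes). Median signals were 86.1, 83.3 and 84.3 on the 5-Aza arrays and 74.0, 71.8 and 76.9 on control arrays 1, 2 and 3. The log2 ratio of the ACTB 3′ to 5′ probe sets, a measure of RNA integrity and labelling, was 0.75, 0.64 and 0.80 with 5-Aza and 0.45, 0.57 and 0.60 in control cells, where array 2 lay between the other controls. The same ratio for GAPDH was 0.14, 0.17 and 0.23 with 5-Aza and 0.13, 0.10 and 0.16 in control cells, where array 2 was the lowest of the 6 arrays. The part of these measures in the excess was not tested.

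**Figure D3:**
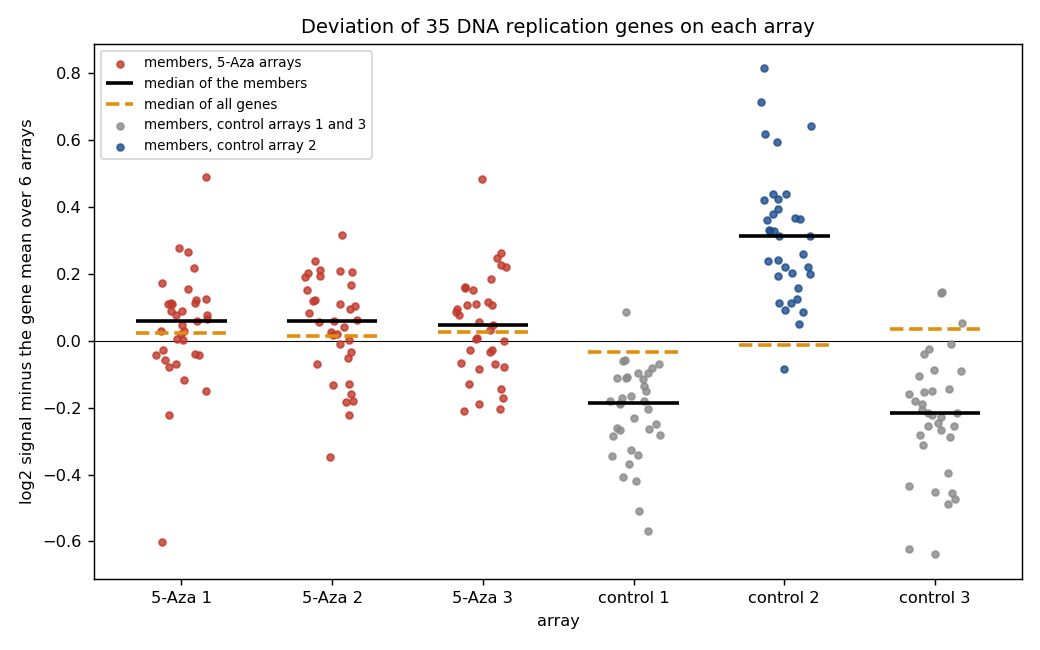
Log2 signal minus the mean of the gene over the 6 arrays, for each of the 35 replication genes (points) on each array, with the median of these genes (black line) and of all genes (dashed line). The replication genes have medians of 0.06, 0.06 and 0.05 on the 5-Aza arrays, and of -0.19, 0.31 and -0.22 on control arrays 1, 2 and 3.

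Against control arrays 1 and 3 alone the median log2 difference was 0.25, with 0.03 for all genes, and it was positive for 31 of 35 genes, where 53.8% of all genes were positive. The sign turned for 7 genes, each negative over all 6 arrays and positive without array 2, namely ORC1 (0.34), GINS2 (0.19), POLA2 (0.17), MCM2 (0.13), CHAF1B (0.11), MCM5 (0.08) and CDT1 (0.04). With median centring as well, a combination chosen after seeing the data, the medians were 0.09 and -0.13, and 26 of 35 genes were positive. All 3 treated arrays exceeded both remaining controls in 24 of 35 genes, where 17.3% of all genes did so. By limma without control array 2, an unadjusted p under 0.025 was reached by 3 genes with positive differences, ORC6 (log2 difference 0.89, adjusted p = 0.421), GINS3 (0.62, adjusted p = 0.507) and RFC3 (0.55, adjusted p = 0.519), where 3.24% of all genes were called. It was reached by 0 genes with negative differences, where 1.13% of all genes were called. At an adjusted p under 0.05 the count was 0. The other probe set of GINS3 gave 0.15, and the other RFC3 probe set with a mean above 42 gave 0.59. Against control array 2 alone the order was the opposite, since all 3 treated arrays lay below it in 26 of 35 genes, where 27% of all genes did so. Control array 2 was the highest control for 35 of 35 genes and for 34.6% of all genes. Leaving it out therefore raises the difference of each of the 35 genes, and the comparisons with all genes in this paragraph largely restate its excess. These values describe the arrays, and which control arrays stand for untreated cells cannot be settled from them.

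**Figure D4:**
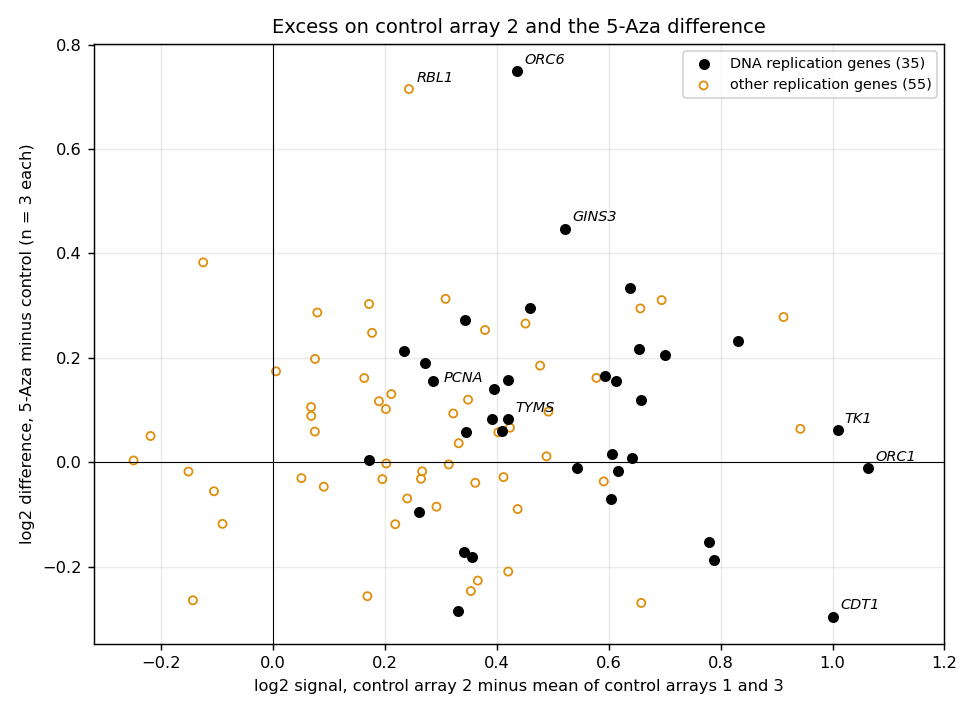
Log2 difference, 5-Aza minus control, over all 6 arrays (vertical axis) against the log2 excess of control array 2 over control arrays 1 and 3 (horizontal axis), for 35 replication genes (black) and 55 other replication genes (open circles). Both axes use control array 2. All 35 black points lie right of 0, from 0.17 to 1.06, and on both sides of 0 vertically.

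More than 1 probe set was found for 21 of the 35 genes, which gave 69 probe sets in all. Of the 34 that were not used, 29 had a mean signal above 42, and 19 of these had a positive difference. Of these 29 probe sets, 0 passed an unadjusted p under 0.025, and control array 2 was their highest control in 22. Of all genes with 1 probe set each, 3.01% were called higher and 0.915% lower, and control array 2 was the highest control for 34.6%. Of 20 genes with more than 1 probe set above 42, 10 had differences of both signs, namely CCNE2, CHAF1A, GINS2, GINS4, MCM6, MCM10, POLA2, RFC2, TK1 and TYMS. MCM6 differed by 0.16 with the probe set used and by -0.27 with the other, TYMS by 0.08 against 0.07 and -0.38, and CHAF1A by 0.30 against 0.11 and -0.06. The negative probe sets of MCM6 and TYMS were weak, with mean signals of 112 and 121, against 4707 and 8544 for those used. RFC2 differed by -0.18 with the probe set used and by 0.29 with the other, and GINS3 by 0.45 and 0.03. For MCM10 the probe set used gave 0.21 and the other 2 gave 0.52 and -0.06. The probe set that gave 0.52 did not overlap between the groups, with signals of 609, 490 and 483 in treated cells and 336, 433 and 337 in control cells (adjusted p = 0.665, limma). GINS4 had -0.29 with the probe set used and from 0.39 to 0.97 with 3 weaker ones. No direction is read from these 10 genes or from GINS3.

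**Figure D5:**
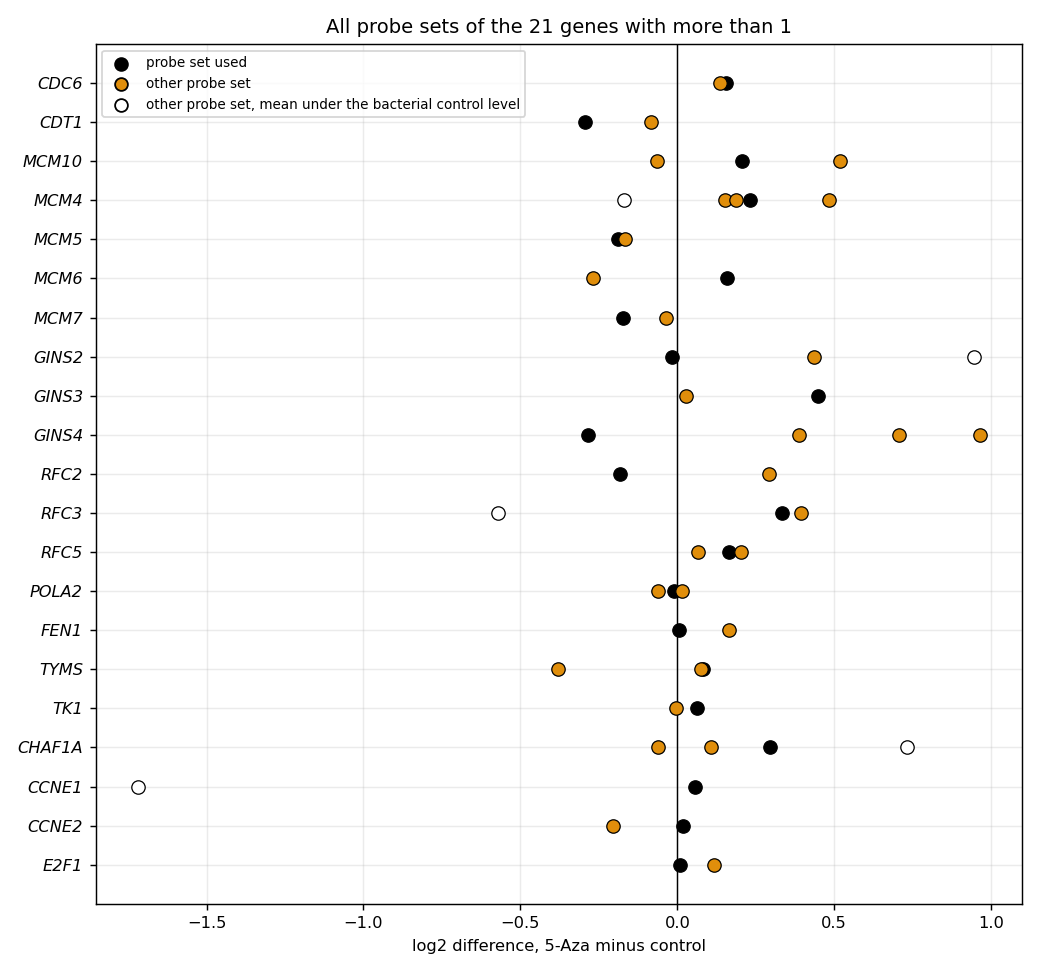
Log2 difference, 5-Aza minus control, of every probe set of the 21 genes with more than 1, with black points for the probe set used, orange points for the others and open points for others with a mean signal under 42. The probe sets of RFC2 and GINS4 lie on both sides of 0, while those of MCM5, CDC6 and RFC5 each lie on a single side.

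A further list held 56 replication, S phase and nucleotide synthesis genes that are not among the 35, of which 55 were measured. Their median log2 difference was 0.06. By limma, 1 gene was higher and 0 were lower at an unadjusted p under 0.025, where 3.01% and 0.915% of all genes were called. The gene was RBL1, which encodes p107, a member of the retinoblastoma family that represses E2F targets. Its signals averaged 242.2 ± 6.57 in treated cells and 147.9 ± 18.5 in control cells (SD, n = 3 each), a log2 difference of 0.71 ± 0.16 (SE, adjusted p = 0.460 by limma), with no overlap between the groups. RBL1 has 4 probe sets, and its call was lost with their average, with the SAM-type statistic and with the replicate number as a block. The groups did not overlap for 6 genes with higher signals and for 3 with lower signals, and these shares are near those of all genes given above. RB1, the retinoblastoma gene, was among the 6, with a difference of 0.38 and an unadjusted p of 0.040. Control array 2 was the highest control for 43 of the 55 genes, with a median excess of 0.26, between the values of the 35 genes and of all genes.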

How the data were processed

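Gene expression was measured on 6 HGU133 Plus 2.0 arrays, 3 of 5-Aza-treated and 3 of control HT-29 cells. The authors deposited linear intensity values, 1 signal per probe set and array. The submitters' processing notes name affy, with no version, and the background correction and summarization are not given in the sources used here. The sample labels and the methods differ on the kit and amount of RNA. Of 54675 probe sets, 41097 had 1 gene symbol in the platform annotation, 1801 had several and 11777 had none. The 62 control probe sets were left out, and log2(signal + 1) of the other 54613 was compared with limma 3.58.1 in R 4.3.3 (lmFit and eBayes, group as the only term), with Benjamini-Hochberg adjustment. The methods name SAM, which was run as an alternative. Single genes were also compared by an exact two-sided permutation test with SciPy 1.17.1. The code was tested on simulated data, in which 200 of 54613 probe sets were changed. The number of arrays limits the precision.

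For each gene, the probe set of highest mean among those with 1 symbol was taken, an _x_at probe set only in the absence of others. All 35 genes are accounted for, and signals on every array are given for genes past an unadjusted p under 0.025, for those whose groups do not overlap with an absolute log2 difference above 0.5, and for the strongest gene of each role. ORC1, CDT1, MCM5, GINS3, GINS4, RFC3, TK1 and E2F1 were added after their values were seen. From the further replication list, genes past an unadjusted p under 0.025 are named, and RB1 was added after its value was seen. The genes and lists were chosen with earlier results of these data known, and the list of fork protection and repair genes was written after the data had been seen. Replicate numbers did not pair the arrays (correlations of deviations from -0.012 to 0.0097). Protein sequences were not used here. Alternatives besides SAM were quantile normalization, median centring, a robust variance with trend in limma, probe sets above the median signal, another added constant, the replicate block, each array left out, averaged probe sets, and control probe sets kept.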

Additional observations from a re-analysis of the deposited data

How the results depend on the processing

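The median log2 difference of the 35 genes, 0.08, was -0.10 after median centring, which lowers all probe sets by 0.19 (all genes then had a median of -0.15, and 10 of 35 genes were positive). It ran from -0.031 to 0.251 on leaving out each array in turn. The count of genes higher at an unadjusted p under 0.025, 1, was 0 with the SAM-type statistic, with median centring and with the replicate number as a block, and from 0 to 3 on leaving out arrays, the 3 without control array 2 and the 0 without 5-Aza array 1 or 3 or control array 1 or 3. For the other replication genes that count, 1, was 0 with the SAM-type statistic, the replicate block and the average over the probe sets of each gene, 2 with probe sets above the median signal only, and 3 with trend and robust variance. Genes lower without overlap, 0, were 2 after median centring and from 0 to 2 on leaving out arrays. Genes higher without overlap, 1, were 2 after quantile normalization, 2 with the average over probe sets, and from 1 to 24 on leaving out arrays, the 24 without control array 2. Without that array 17.3% of all genes were higher without overlap. For the other settings the share of all genes is not given, so these counts are not read as results about the replication genes.

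Several uncalled differences changed sign. Median centring gave CDC6 -0.032, MCM6 -0.029, CDC45 -0.068, PCNA -0.046, RFC4 -0.13, RFC5 -0.021, POLA1 -0.031, PRIM1 -0.10, FEN1 -0.18, TYMS -0.10, TK1 -0.13, CCNE1 -0.13, CCNE2 -0.17 and E2F1 -0.18. The average over the probe sets of each gene gave MCM6 -0.055, GINS2 0.45, GINS4 0.44, RFC2 0.056, TYMS -0.074, CCNE1 -0.83 and CCNE2 -0.094, and quantile normalization gave CCNE2 -0.032 and E2F1 -0.016. Such an average counts weak probe sets as much as strong ones. The other CCNE1 probe set had a mean signal of 18.9, under 42, and differed by -1.72, so -0.83 is not read as a drop. The other GINS2 probe sets had mean signals of 71.2 and 41.3. Leaving out arrays (without control array 2 the sign turned for ORC1, CDT1, MCM2, MCM5, GINS2, POLA2 and CHAF1B) gave CCNE1 -0.061 to 0.17, CCNE2 -0.12 to 0.22, CDC45 -0.036 to 0.34, CDC6 -0.033 to 0.36, CDT1 -0.51 to 0.038, CHAF1B -0.45 to 0.11, E2F1 -0.10 to 0.22, FEN1 -0.090 to 0.065, GINS2 -0.14 to 0.19, MCM2 -0.18 to 0.13, MCM5 -0.32 to 0.075, ORC1 -0.33 to 0.34, POLA2 -0.10 to 0.17, PRIM1 -0.038 to 0.21, RFC4 -0.035 to 0.20, TK1 -0.16 to 0.40 and TYMS -0.031 to 0.22. Why arrays and probe sets differ was not tested. With 3 arrays a group, the precision is that of the intervals given above.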

Other observations

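Genes of fork protection and DNA repair, which stabilize stalled forks and mend breaks and adducts, form a list next to the replication genes, and 32 of its 40 genes were measured. Their median log2 difference, 5-Aza minus control, was 0.13, and 20 of 32 were positive, where 54.9% of all genes were. By limma 0 genes passed an unadjusted p under 0.025 or under 0.05 in either direction, and the smallest adjusted p was 0.711. Of all genes, 3.01% were higher and 0.915% lower at 0.025, and 5.33% and 1.89% at 0.05. The groups did not overlap for 4 genes with higher signals, among them XRCC2 (0.54), a factor of homologous recombination, and RAD18 (0.53), the ligase that ubiquitinates PCNA, and for 2 with lower signals, XRCC3 (-0.35), also of homologous recombination, and MSH3 (-0.26), a mismatch repair factor. Of all genes, 9.92% and 6.94% did not overlap in these directions, so both counts are near the background and the 4 genes are named as values only. The only XRCC2 probe set ends in _x_at, as does that of ORC6. RAD18 has 4 probe sets, and the one used had a mean signal of 188, with control signals of 189, 183 and 98.6. Control array 2 was the highest control for 17 of the 32 genes, where it was for 34.6% of all genes, and its median excess over control arrays 1 and 3 was 0.14.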
